A study of Homo sapiens with 4 samples.

Results

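DPYD encodes dihydropyrimidine dehydrogenase, the enzyme that starts the breakdown of uracil, thymine and the chemotherapy drug fluorouracil. Its level, and that of 9 further genes through which a cell breaks down, activates or is hit by fluorouracil, was read in the human gastric cancer line NUGC3 with and without a knockout of PRMT6. The PRMT6 enzyme adds asymmetric dimethyl marks to arginines, among them one in the tail of histone H3. The members were all probe sets of the expression array whose platform annotation names 1 of the 10 genes DPYD, DPYS, UPB1, TYMP, TYMS, UMPS, UPP1, UCK2, TK1 and DUT. This gave 23 of the 54613 probe sets, for 9 of the 10 genes, out of 19775 genes measured by probe sets with 1 symbol. Both probe sets that carry the symbol UCK2 also carry that of the microRNA gene MIR3658, so they are given apart and enter no count. The genes were selected on the log2 fold change of DPYD in the same knockout comparison, DPYD being the 1 member called when each gene was represented by 1 probe set, and the others by their place in the pathway with their values known. The values below are therefore a description of these arrays, and members carry no test.

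Total RNA was hybridised to 4 single-colour arrays, 2 of PRMT6 wild-type cells, called control here, and 2 of PRMT6 knockout cells. Both groups are NUGC3 grown in the same serum-containing medium. For the knockout, lentivirus from the lentiCRISPR v2 vector carried a guide against PRMT6, infected cells were selected with puromycin, and clones were taken by limiting dilution. The sources used here do not give the number of knockout clones, nor whether control cells received a vector or puromycin, so clone, vector and loss of PRMT6 cannot be told apart in any value. The labels name no drug treatment other than puromycin. The guide oligo, shown because it defines the knockout, is given 5′ to 3′ as the labels write it; its place in the gene was not determined here.
PRMT6 guide: gacggtactggacgtgggcg

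Fluorouracil has no effect as the free base. It is turned into nucleotides by the cell's own pyrimidine enzymes: UMPS joins it to ribose phosphate in a single step, while UPP1 and TYMP add a sugar that the kinases UCK2 and TK1 then phosphorylate. One of the products blocks thymidylate synthase, the TYMS protein, which makes the thymidine nucleotide of DNA from deoxyuridine monophosphate, and DUT supplies that substrate by removing pyrophosphate from dUTP. Breakdown competes with this activation: DPYD reduces the ring, DPYS opens it and UPB1 cuts the open chain, and the liver is known as the main site of the whole chain.

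The arrays behaved as follows. Over all probe sets the control arrays correlated with each other at 0.993 (Pearson) and the knockout arrays at 0.997. Control array 1 correlated with knockout arrays 1 and 2 at 0.995 and 0.994, more closely than with control array 2. Control array 2 correlated with both knockout arrays at 0.991, and its upper quartile was 6.62 beside 6.77 to 6.79 on the others. The part of this spread in the member values was not tested. PRMT6 read 7.66 on each control array and 6.87 and 6.91 on the knockout arrays, a log2 fold change of -0.77 (SE 0.086) on its only probe set, which was not called over all probe sets (limma adjusted p = 0.114), so the labels are checked only in part. The 5 epithelial markers KRT8, KRT18, KRT19, EPCAM and CDH1 lay above the median of all probe sets on all 4 arrays, with array means between 12.2 and 12.3 on the log2 scale. Of 7 gastric markers 3 did (TFF2, MUC5AC and MUC1). CLDN18 and GKN1 lay at 3.79 to 4.06 and 3.22 to 3.67, below the array medians of 4.73 to 4.77. Gastric marker means lay between 5.02 and 5.04 in control and between 4.79 and 4.96 in knockout arrays, and single genes went both ways. The gastric annexin ANXA10 read 5.39 and 5.36 in control and 4.14 and 3.83 in knockout arrays, a log2 fold change of -1.39 (limma adjusted p = 0.0900). MUC1 read 6.33 and 6.33 in control and 7.03 and 6.90 in knockout arrays, a log2 fold change of 0.64 (limma adjusted p = 0.197). TFF1 and GKN1 gave -0.41 and -0.098, and CLDN18, MUC5AC and TFF2 gave 0.14, 0.049 and 0.012. The part of these levels in the member values was not tested. Of 4 hepatocyte markers, TTR alone lay above the median, and albumin (ALB) read 2.50 to 2.64. Marker means of fibroblasts and endothelium lay between 4.69 and 5.24 in control and between 4.75 and 4.77 in knockout arrays, and those of leukocytes between 4.04 and 4.24 and between 3.99 and 4.11. None of these marker genes was called on its brightest probe set. Nothing in the labels says that replicates came from separate cultures, so the spread behind each p-value is that between these arrays and may be technical.

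The stretches just upstream of 3 member genes, DPYD, UPP1 and TYMS, are shown because these genes span what the 23 probe sets held. DPYD had the one difference above 2-fold. UPP1 had the next largest, with the probe sets shared by UCK2 and MIR3658 (up to 0.38) left out. TYMS is the gene of the drug's target. Each stretch is the 250 bases before the outermost annotated start, from RefSeq on GRCh38.p14, read 5′ to 3′ in the direction of the gene. Capitals mark the GC box (GGGCGG, either strand), a motif bound by SP-family factors, and the E2F motif of S-phase genes (TTTGGCGC, TTTGCCGC, TTTCGCGC or TTTCCCGC, either strand); the marked motifs share no bases. The DPYD stretch is chr1:97921060-97921309, minus strand, that of UPP1 is chr7:48088454-48088703, plus strand, and that of TYMS is chr18:657403-657652, plus strand.
DPYD: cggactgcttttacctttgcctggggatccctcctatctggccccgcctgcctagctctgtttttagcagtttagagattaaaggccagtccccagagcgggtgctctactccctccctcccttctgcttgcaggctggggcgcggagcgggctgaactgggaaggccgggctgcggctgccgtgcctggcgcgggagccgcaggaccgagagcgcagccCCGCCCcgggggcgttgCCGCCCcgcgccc
UPP1: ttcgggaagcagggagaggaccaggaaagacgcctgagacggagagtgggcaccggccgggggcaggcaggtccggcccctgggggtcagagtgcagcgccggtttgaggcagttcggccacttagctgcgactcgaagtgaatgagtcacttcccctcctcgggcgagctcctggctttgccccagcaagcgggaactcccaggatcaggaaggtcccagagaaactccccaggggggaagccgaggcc
TYMS: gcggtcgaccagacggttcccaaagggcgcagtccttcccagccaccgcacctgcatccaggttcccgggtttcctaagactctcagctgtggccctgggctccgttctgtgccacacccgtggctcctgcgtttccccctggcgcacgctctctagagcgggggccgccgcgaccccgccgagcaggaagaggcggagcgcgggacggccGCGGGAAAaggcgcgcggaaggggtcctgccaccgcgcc
The DPYD stretch held 2 GC boxes, which ended 7 and 24 bases before the start, and 0 E2F motifs, with a G and C content of 68.8% and 20 CpG dinucleotides. TYMS held 0 GC boxes and 1 E2F motif, which ended 31 bases before the start, at 71.2% G and C with 28 CpG, and UPP1 held neither motif, at 66.0% with 15 CpG. Over the 24884 genes with such a stretch, 41.7% had a GC box and 2.76% an E2F motif, the median G and C content was 57.6% and the median number of CpG was 10. RefSeq stretches were matched for 9 of the 10 genes, and GC boxes were found in those of TK1 (2), TYMP (4), UCK2 (4) and UPB1 (1) but not of UMPS or DUT. TK1 had the only TATAAA of the 9, 126 bases upstream, a motif found in 11.4% of all stretches. A match of letters is not evidence of binding, and all 3 printed stretches lie above the median G and C content whether their gene differed or not.

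DPYD was higher in both knockout arrays, and by more than 2-fold, on the probe set designed from the RefSeq transcript. That probe set, 204646_at, read 7.33 and 7.11 on control arrays 1 and 2 and 8.33 and 8.34 on knockout arrays 1 and 2, all above the array medians. The lower knockout value lay 1.00 above the higher control value, while the control arrays differed by 0.22 and the knockout arrays by 0.014. The log2 fold change was 1.11 (SE 0.11, n = 2 arrays per group), a linear ratio of 2.16. In size it ranked 208th of the 54613 probe sets, so that 0.381% of the table differed by at least as much.

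The other DPYD probe sets, both designed from another cDNA record, showed smaller differences. On 1554534_at the levels were 4.94 and 4.95 in control and 5.11 and 5.14 in knockout arrays, a log2 fold change of 0.18 (SE 0.085). The groups did not overlap, and these levels lay close to the array medians (4.73 to 4.77). RMA compresses fold changes of dim probe sets, but its part in this smaller difference was not tested. On 1554536_at the levels were 2.70 and 2.65 in control and 2.69 and 3.25 in knockout arrays, near or below the lower quartile of each array (3.21 to 3.29). There knockout array 2 stood apart and knockout array 1 lay within the control values, so the log2 fold change of 0.30 (SE 0.20) came from 1 array. All 3 probe sets thus pointed upward, and they disagreed on the size; which transcripts each detects was not determined here.

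**Figure D1:**
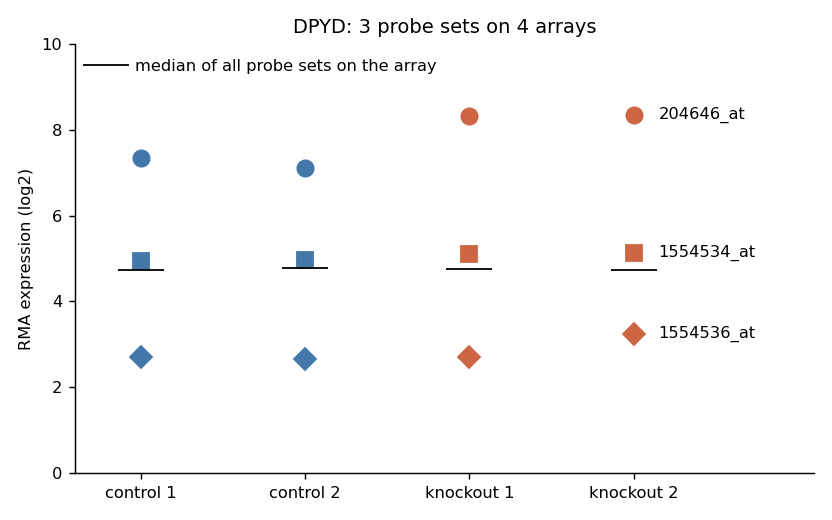
RMA log2 expression of the 3 DPYD probe sets (y axis) on each of the 4 arrays (x axis; blue control, orange knockout), with a bar at the median of all probe sets on that array. 204646_at has means of 7.22 in control and 8.33 in knockout arrays, 1554534_at lies just above the array medians, and 1554536_at lies below them.

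The next enzymes of the breakdown chain were dim in these cells. DPYS, the dihydropyrimidinase, read 2.87 and 2.95 in control and 2.88 and 3.06 in knockout arrays on its only probe set, below the lower quartile of each array. Its log2 fold change was 0.057 (SE 0.11), with overlapping groups, and at this brightness the array does not show whether the transcript was present. UPB1, the beta-ureidopropionase, had 4 probe sets, of which 1 lay above the median on all arrays. That one, 228219_s_at, read 5.54 and 5.72 in control and 5.65 and 5.63 in knockout arrays, a log2 fold change of 0.0089 (SE 0.10) that was -0.014 after cyclic loess and -0.029 after quantile normalization. The dimmer probe sets gave -0.12, -0.16 and -0.12; on 220507_s_at, which gave -0.16, both knockout values (4.30 and 4.23) lay below both control values (4.43 and 4.41). Of the breakdown genes, DPYD alone had a probe set well above the array median on every array together with separate groups. Groups were separate in 38.7% of the whole table, and DPYD was selected on its difference, so nothing is read from this.

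Among the genes that activate the base, UPP1 was higher in both knockout arrays by a smaller amount than DPYD. UPP1, the uridine phosphorylase, read 8.64 and 8.58 in control and 8.83 and 9.02 in knockout arrays, a log2 fold change of 0.31 (SE 0.11) or a linear ratio of 1.24. The gap between the groups was 0.19, about the same as the difference of 0.19 between the knockout arrays. TYMP, the thymidine phosphorylase, read 7.03 and 6.68 in control and 6.78 and 6.83 in knockout arrays on its brighter probe set, and both knockout values lay between the control values. Its log2 fold change was -0.054 (SE 0.14), and 0.12 without control replicate 1. The dimmer TYMP probe set gave -0.015 (SE 0.10), with a turned sign after quantile (0.0048) and cyclic loess normalization (0.015). SCO2, whose gene overlaps TYMP, read 7.66 and 7.46 in control and 7.42 and 7.56 in knockout arrays, also with overlapping groups.

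UMPS, which holds the orotate phosphoribosyltransferase that converts fluorouracil in a single step, gave different answers on its probe sets. On 202706_s_at the levels were 7.995 and 8.02 in control and 8.14 and 8.21 in knockout arrays, a log2 fold change of 0.17 (SE 0.088) with separate groups. On 215165_x_at, the brightest of the gene and of a type whose probes may also match other transcripts, they were 8.60 and 8.74 in control and 8.58 and 8.77 in knockout arrays. The fold change there was 0.0057 (SE 0.11), or -0.0085 after quantile and -0.020 after cyclic loess normalization. A dimmer probe set with separate groups, 202707_at, gave 0.19 (SE 0.10), and the dimmest gave 0.060 (SE 0.12). All 4 UMPS probe sets had a log2 fold change above 0 in the deposited values. The groups were separate with the knockout higher on 2 of the 4, at 0.17 and 0.19, beside 19.7% of the whole table.

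Of the nucleoside kinases, only TK1 had probe sets of its own, and it differed little. TK1, the thymidine kinase of dividing cells, read 10.30 and 10.23 in control and 10.22 and 10.29 in knockout arrays on 1554408_a_at, a log2 fold change of -0.015 (SE 0.090). Its second probe set read 10.09 and 9.86 in control and 9.96 and 10.04 in knockout arrays and gave 0.028 (SE 0.12). On both, the groups overlapped. The probe sets annotated to UCK2 together with MIR3658 disagreed: the brighter, 209825_s_at, gave 0.033 (SE 0.092) with overlapping groups, while 225722_at read 6.76 and 6.63 in control and 7.03 and 7.11 in knockout arrays, a log2 fold change of 0.38 (SE 0.098) with a gap of 0.27 between the groups.

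Of the 6 probe sets of the thymidylate genes, 4 had separate groups with the knockout higher, by small amounts, beside 19.7% of the whole table. By limma over all probe sets 0 of the 6 were called, and nothing is read from the count. TYMS read 11.34 and 11.38 in control and 11.46 and 11.47 in knockout arrays on 202589_at, a log2 fold change of 0.10 (SE 0.086). On 1554696_s_at it read 10.02 and 10.03 in control and 10.21 and 10.26 in knockout arrays, a log2 fold change of 0.21 (SE 0.086), and the groups were separate on both. The third TYMS probe set lay between 4.06 and 4.17 on every array, below the medians, and its group means were equal. TYMSOS, a long noncoding gene that overlaps TYMS, read 4.83 and 4.39 in control and 5.00 and 4.74 in knockout arrays, with overlapping groups.

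DUT, the dUTPase, read 10.91 and 10.94 in control and 11.04 and 10.98 in knockout arrays on 208956_x_at, which gave 0.085 (SE 0.088). 209932_s_at gave 0.11 (SE 0.087), and the groups were separate on both, with gaps of 0.035 and 0.069. The remaining probe set, 208955_at, gave 0.0020 (SE 0.087) with overlapping groups, and -0.045 after quantile and -0.037 after cyclic loess normalization. These differences in TYMS and DUT were 0 to 0.21 on the log2 scale against 1.11 for DPYD.

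**Figure D2:**
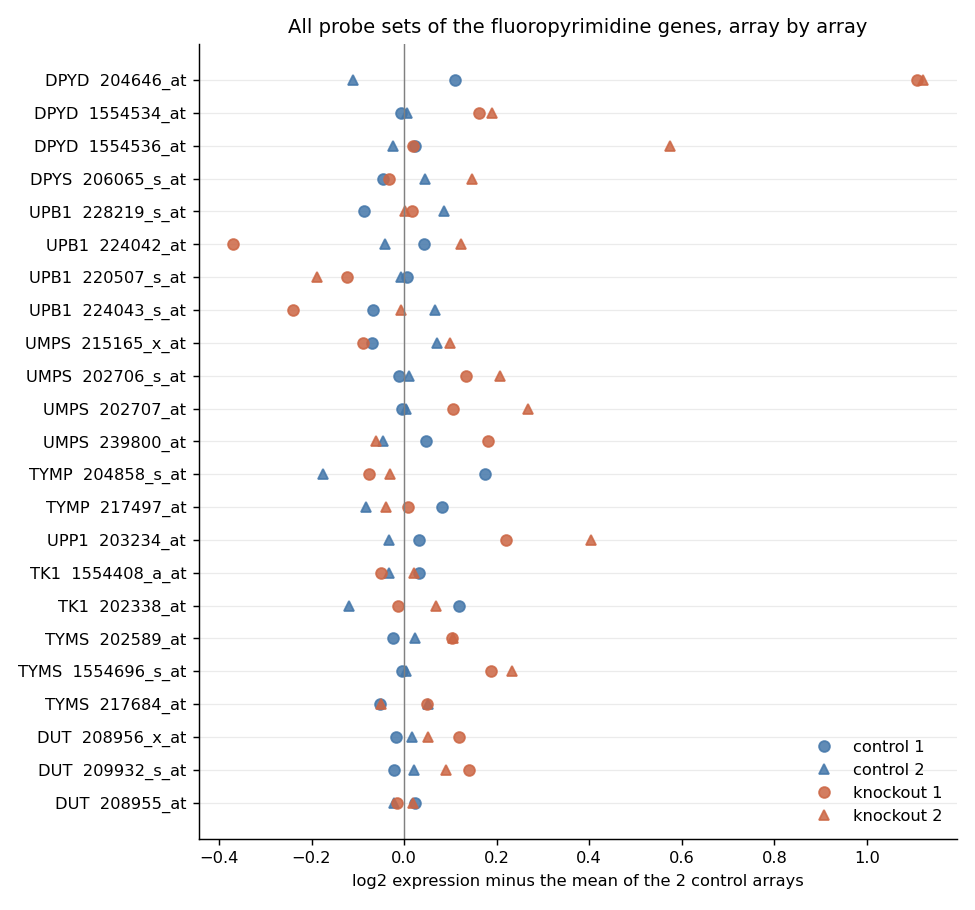
Log2 expression on each array minus the mean of the 2 control arrays (x axis) for the 23 probe sets (y axis, in order of the pathway); circles are replicate 1 and triangles replicate 2, blue control and orange knockout. DPYD 204646_at stands 1.11 above the control mean, while UPP1, with 0.31 between its group means, is the next highest gene.

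Over the 23 probe sets, 16 were higher, 6 lower and 1 equal in the knockout, with a median log2 fold change of 0.057; over all probe sets of the table, 48.8% were higher and the median was -0.0029. Without the DPYD probe sets the median of the remaining 20 was 0.018, with 13 higher and 6 lower. By limma over all probe sets 0 of the 23 were called at an adjusted p under 0.05, beside 0.148% (81) of the whole table. At an unadjusted p under 0.05 there were 2, the DPYD probe set 204646_at and that of UPP1, beside 8.65% of the table. The groups did not overlap in 10 of the 23, of which 9 were higher in the knockout, beside 38.7% of the table without overlap in either direction and 19.7% with the knockout higher. A difference of at least 2-fold was seen in 1 of the 23, beside 0.515% of the table. With 1 probe set per gene, where 94 of 19775 genes (0.475%) were called, DPYD was the 1 call among 9 member genes, 89th in order of p. As the genes were assembled with this comparison known, nothing is read from these counts.

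**Figure D3:**
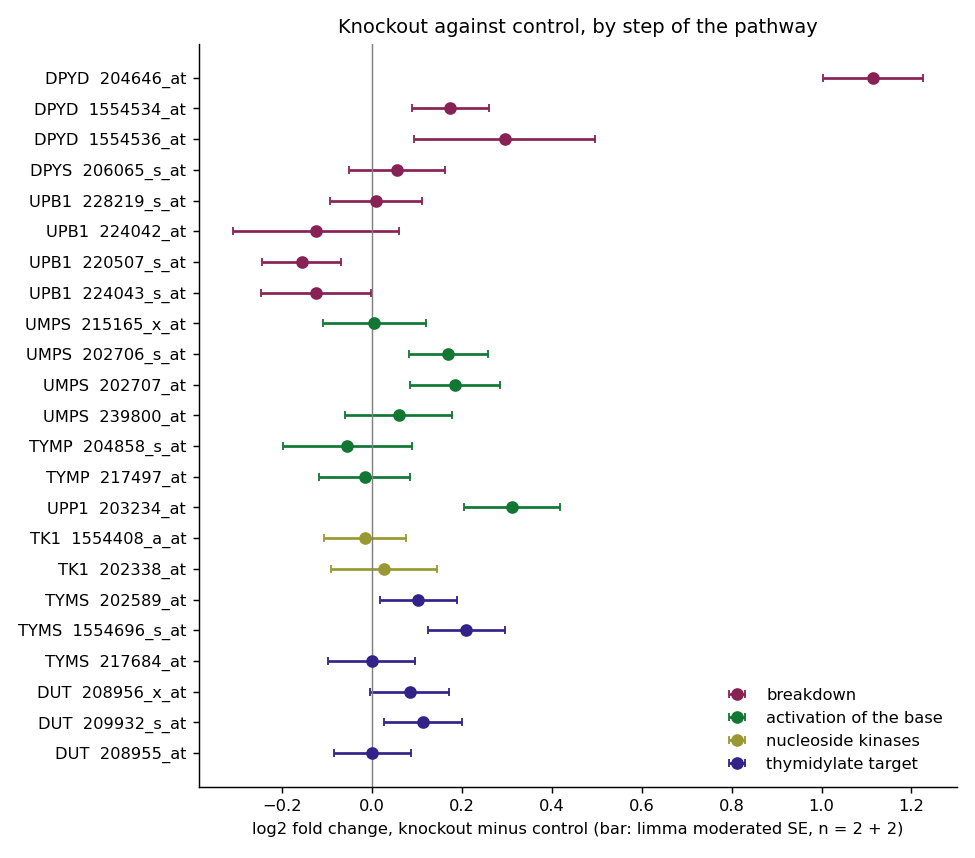
Log2 fold change, knockout minus control (x axis; bars, moderated SE of limma, 2 arrays per group), for each of the 23 probe sets (y axis), coloured by step of the pathway. DPYD 204646_at lies at 1.11, UPP1 at 0.31, and all probe sets of the remaining genes lie between -0.16 and 0.21.

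The other genes of pyrimidine and folate metabolism and of fluoropyrimidine entry held 0 called probe sets. This list had 58 genes, of which 55 were measured with 133 probe sets. The median log2 fold change was 0.0072, beside -0.0029 for all probe sets, with 69 higher and 63 lower. Unadjusted, 15 probe sets had a limma p under 0.05 (9 higher, 6 lower), against 8.65% of all probe sets. The largest difference was in CES1, a carboxylesterase that activates ester prodrugs, which read 6.49 and 6.23 in control and 7.15 and 7.20 in knockout arrays. Its log2 fold change of 0.81 (SE 0.12) was not called (limma adjusted p = 0.197). The groups did not overlap and lay 0.65 apart, on a probe set of the type whose probes can match several transcripts.

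The remaining named genes of these lists were not called either. CAD, the enzyme that opens pyrimidine synthesis, read 7.47 and 7.29 in control and 7.80 and 7.73 in knockout arrays and gave 0.38 (SE 0.10, limma adjusted p = 0.436). SLC29A2, an equilibrative nucleoside transporter, gave 0.52 on its brightest probe set (SE 0.14, limma adjusted p = 0.438), and -0.14 to 0.065 on its other 4. RRM2, the small subunit of ribonucleotide reductase, gave -0.35 (SE 0.087, limma adjusted p = 0.389), with -0.44 on its second probe set. The 40 measured genes around RRM2 on chromosome 2 had a median of -0.21, with 33 of them lower, and the part of this neighbourhood in the RRM2 value was not tested. NT5C2, a nucleotidase of the cytosol, read 8.77 and 8.76 in control and 8.41 and 8.41 in knockout arrays, a log2 fold change of -0.36 (SE 0.085, limma adjusted p = 0.374).

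MTHFD1, a folate enzyme that supplies the one-carbon unit, gave 0.25 (limma adjusted p = 0.559), and UNG, the uracil-DNA glycosylase, gave 0.18 (limma adjusted p = 0.661). UPP2, the liver-type uridine phosphorylase, lay at 2.89 to 3.55 on all arrays and gave -0.43 (limma adjusted p = 0.561) at a brightness where a fold is unsure. By list, the medians ran from -0.063 for nucleoside and drug transport (28 probe sets) to 0.045 for uracil excision from DNA (10 probe sets).

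**Figure D4:**
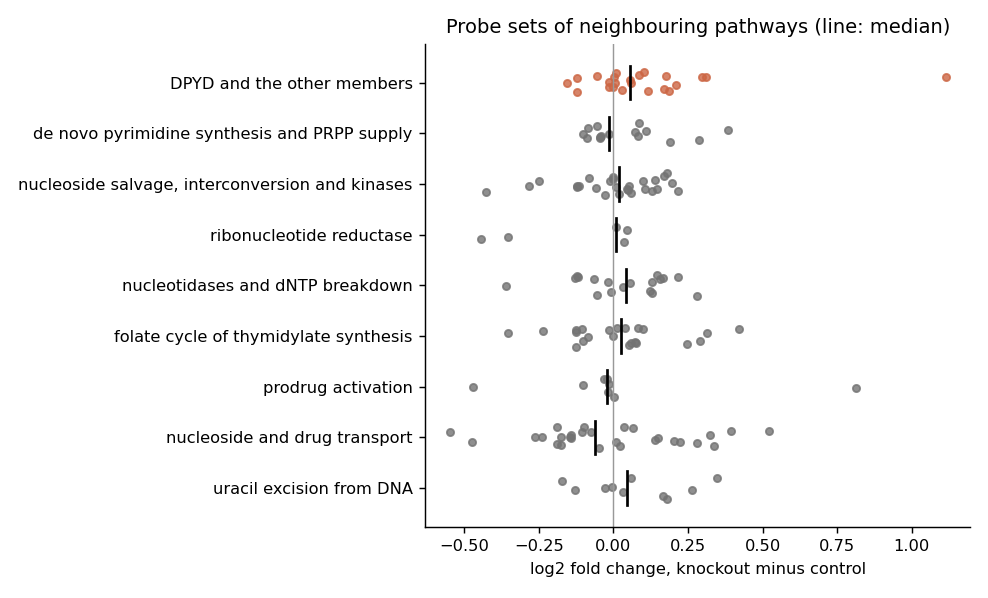
Log2 fold change, knockout minus control (x axis), of every probe set of the 8 lists of neighbouring pathways (grey) and of the 23 member probe sets (orange), 1 list per row with its median as a line. Medians lie between -0.063 and 0.057, and CES1 at 0.81 and DPYD at 1.11 are the highest points.

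DPYD and PRMT6 both lie on the short arm of chromosome 1, and the genes between them had a median difference near that of the whole table. RefSeq lists 126 genes between them, of which 25 were measured with 56 probe sets. Their median log2 fold change was 0.012, with 31 higher and 25 lower, and 0 were called by limma (5 at an unadjusted p under 0.05, beside 8.65% of all probe sets). The values ran from -0.45 to 0.36. The nearest measured neighbours of DPYD, PTBP2 on one side and SNX7 on the other, gave 0.039 (SE 0.18) and 0.14 (SE 0.090) on their brightest probe sets, and neither was called (limma adjusted p = 0.975 and 0.717). RWDD3 and LINC02790 before DPYD gave -0.014 and -0.12, and PLPPR5 and PLPPR5-AS1 after it reached at most 2.98 on any array. None of the 25 genes reached the size of the DPYD difference on these arrays. DPYD was selected on that difference, which 0.381% of the table reached, so nothing is read from this. Whether the region changed as a whole was not tested.

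**Figure D5:**
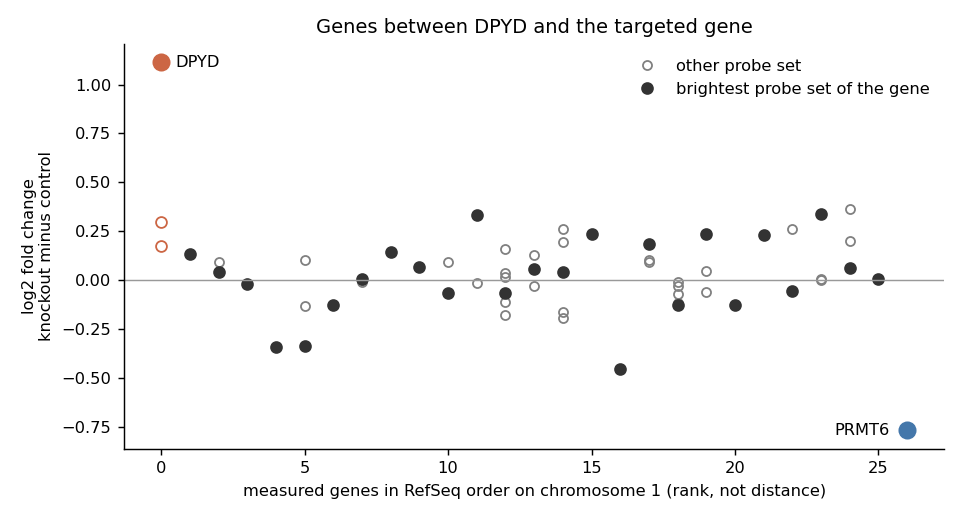
Log2 fold change, knockout minus control (y axis), of the measured genes between DPYD (left, orange) and PRMT6 (right, blue) in the order of RefSeq (x axis, rank without distance); filled points are the brightest probe set of a gene. The 25 genes between lie from -0.45 to 0.36. DPYD, selected on its difference, lies at 1.11, and PRMT6 at -0.77.

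Around the other member genes the differences were centred near 0 as well. The median log2 fold change of up to 20 measured genes on each side lay between -0.053 (around TK1) and 0.049 (around TYMS) for all 10 member genes, and was 0.0081 around DPYD. Of all genes outside the members, PLPP2, PPP1R14A and WLS had the pattern most like that of DPYD 204646_at, by the distance between their centred log2 values over the 4 arrays (0.034, 0.052 and 0.063). PLPP2, a lipid phosphate phosphatase, read 7.87 and 7.61 in control and 8.84 and 8.86 in knockout arrays. PPP1R14A, an inhibitor of myosin phosphatase, gave 1.07, and WLS, a carrier of WNT proteins in secretion, gave 1.07 on a probe set at 2.23 to 3.39. With 4 arrays such likeness only describes the values.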

How the data were processed

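Total RNA of 2 control and 2 PRMT6 knockout arrays was compared. Per the submitters' processing notes the authors used RMA and affy, which gives deposited values on a log2 scale for each probe set; the sources used here name neither versions nor settings. RMA removes a change shared by most transcripts and compresses differences of dim probe sets. The number of arrays limits the precision. The platform annotation gave 1 symbol for 41091 of 54613 probe sets, several for 1801 and none for 11721. RefSeq tables of GRCh38.p14 gave gene order and promoter sequences; 41037 of those with 1 symbol matched by gene ID, with 0 symbols changed.

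Knockout and control were compared with limma 3.58.1 in R 4.3.3 (lmFit and eBayes, default settings, group as the only term, two-sided, Benjamini-Hochberg over all 54613 probe sets, with an adjusted p under 0.05 as the threshold). Each log2 fold change is the knockout mean minus the control mean, with limma's moderated SE. The smallest p of an exact permutation test of 2 against 2 arrays is 0.333. The members and gene lists were chosen with earlier results of these data known. Named are all member probe sets, PRMT6, each list gene called or, failing that, the gene of each list whose brightest probe set had the smallest p, 3 measured neighbours on each side of DPYD, overlapping genes, and the 3 genes most like DPYD in pattern. The steps were tested on 20 simulated sets of 54613 probe sets with 200 changed, where the median number of calls was 151 and of false calls 7. The planted differences were all at least 2-fold, a size that 0.515% of the real table reached. The simulated noise was independent between arrays. These counts therefore do not give the sensitivity for smaller differences. Alternatives were quantile and cyclic loess normalization, a filter on dim probe sets, 1 or the mean probe set per gene, a variance trend, a replicate block and leaving out each array. Replicate numbers are shared between the groups, but nothing says that they pair arrays. Some genes are not reported here.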

Additional observations from a re-analysis of the deposited data

How the results depend on the processing

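DPYD 204646_at was 1.00 to 1.22 higher in the knockout under all alternatives that kept this probe set, and 12 of the 23 member probe sets kept their sign wherever they had a value. With 81 called probe sets in the table as the main count, the calls numbered 123 after cyclic loess and 107 after quantile normalization, 797 with a variance trend, 138 genes with the mean of the probe sets per gene, 94 with the brightest, and 167 among the 27307 probe sets at or above the median mean. The share of calls that were higher was 79.0% in the main fit, and 68.3% with that filter, 68.1% with the mean per gene and 56.0% with the trend. Member calls were 0 in the main fit and 1, always DPYD, after cyclic loess and after quantile normalization, with the trend, with the brightest probe set per gene and with the filter. In that order its limma adjusted p was 0.0487, 0.0469, 0.0053, 0.0483 and 0.0420, beside 0.0958 in the main fit and 0.330 with a replicate block. Most of these lie close to the threshold, and as DPYD was selected on this comparison, nothing is read from its calls. Member calls were 0 with the mean per gene and, chosen after seeing the data, also 0 with the probe sets of UCK2 and MIR3658 counted. The pathway lists had 0 calls in the main fit and 4 with the trend (2 of RRM2, 1 each of CES1 and NT5C2). With the replicate number as a block, 0 probe sets were called in the table and among members (smallest adjusted p 0.147; 4160 at an unadjusted p under 0.05). Same-numbered arrays deviated together at a correlation of 0.094 over probe sets, so the numbers do not show a pairing. Leaving out any one of the 4 arrays left 0 calls in the table, 0 among members and 0 in the lists, with 1776 to 10546 probe sets at an unadjusted p under 0.05. Such fits have 1 array in an arm, assumed to vary like the other group. Between DPYD and PRMT6 the median of 0.012 ranged from -0.039 (without control replicate 2) to 0.054 (without control replicate 1). The cause of these changes was not tested. The fits per gene and with the filter used fewer features, and those without an array used fewer arrays. The replicate block added a term to a fit of only 4 arrays. The part of each in the number of calls was not tested. Signal near background limits DPYS, the dimmer probe sets of UPB1 and the dimmest probe sets of DPYD, UMPS and TYMS, and no detection call was used here.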
